A study of Mus musculus with 8 samples.

Results

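Narrow autosomal EBF2 regions are the stretches of chromosomes 1 to 19 where EBF2 peaks of the deposited lists, once merged over the 4 EBF2 libraries at an overlap of at least 1 bp, spanned 10 kb or less. There were 298 such regions among 816 merged EBF2 regions, beside 216 wide autosomal regions and 302 regions on other chromosomes and contigs. The regions were chosen by the EBF2 peaks themselves (position, width and overlap), so their EBF2 lists, folds and widths are given as a description with no test. The regions covered 884 kb in all, and their widths ran from 1024 to 9836 bp with a median of 2344 bp. The libraries were made by Cut & Tag from differentiated BAC, a line of brown preadipocytes taken from *Cars2* flox/flox pups and made immortal by SV40 large T antigen. Vec cells (line BAC-V, genotype WT in the labels) carried the empty retroviral vector and Cre cells (line BAC-Cre, genotype CarS2-KO) carried Cre recombinase from the same vector. Both lines were selected with hygromycin and received the same adipogenic mix of IBMX, indomethacin, dexamethasone, insulin and T3, followed by insulin and T3. Each line had 2 EBF2 libraries and 2 H3K27ac libraries of 50000 cells each, and nothing in the labels says that the 2 libraries of a group came from separate cultures.

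EBF2 is a zinc-finger transcription factor of the early B-cell factor family that binds a palindromic DNA site as a dimer and acts in the brown fat lineage, where it works with PPARγ at genes of thermogenesis. H3K27ac is acetylation of histone H3 at active promoters and enhancers. In Cut & Tag an antibody tethers a transposase to chromatin, so that a bound site yields a pile of fragments, and a peak caller lists the places where that pile rises over the background.

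The EBF2 lists held between 533 and 724 peaks and the H3K27ac lists between 646 and 902, and none gives read counts. EBF2 Vec replicate 2 stood apart from the other EBF2 libraries. Its lowest background coverage at these regions was 1.39 fragments against 7.38, 8.26 and 8.76 in Vec replicate 1, Cre replicate 1 and Cre replicate 2. In EBF2 Cre replicate 1 the names of the peaks contain Cars2AKO, where Vec replicate 1 has WT. AKO is the study's name for mice that lack *Cars2* in adipocytes through Adiponectin-Cre, so the names and the label of this library point to different sources. The label was followed, and 139 of the 298 narrow regions had a peak of this library. Without it there were 264 narrow regions, of which 236 were in 1 list, 71.6% had an H3K27ac peak in any library and 27.3% in all 4. The share within 3 kb of a gene end was then 21.6% and the share within 100 kb of a wide EBF2 region 46.6%. The defining markers of the labelled cell type had no peak nearby. None of the 33 marker genes looked up for brown adipocytes, adipocytes, preadipocytes, muscle, macrophages and endothelium, with *Ucp1*, *Cidea*, *Pparg* and *Ebf2* among them, had an EBF2 or H3K27ac region within 10 kb. Longer lists of genes for the same cell types had a few: *Tshr*, *Gk* (glycerol kinase) and the preadipocyte gene *Ly6a* had an H3K27ac region within 10 kb, and *Tshr* an EBF2 region too.

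The regions that touched the start of a gene are shown first, because they are the members whose DNA sequence could be read. Of the 298 regions, 27 overlapped the promoter window (250 bases before to 50 after the start) of 30 genes in RefSeq's GRCm38.p6 table. The sequences below run 5′ to 3′ on the gene's strand, and capitals mark CCCNNGGG, the core of the EBF site, and CCAAT, the box bound by NF-Y, on either strand. *Cyp3a41a* (chr5:145720087-145720386, minus strand) is shown because its region was the sole one that the Vec lists shared and the Cre lists lacked. The histone gene *H3c6* (chr13:23562336-23562635, minus strand) stands for a run of regions in the histone cluster. The region over the promoter of *2610001J05Rik* (chr6:13871469-13871768, minus strand) had a narrow H3K27ac peak in all 4 libraries, and that of the zinc-finger gene *Zfp947* (chr17:22165928-22166227, minus strand) held the EBF core. *H3c6* and *Zfp947* were picked after their values were seen.
Cyp3a41a: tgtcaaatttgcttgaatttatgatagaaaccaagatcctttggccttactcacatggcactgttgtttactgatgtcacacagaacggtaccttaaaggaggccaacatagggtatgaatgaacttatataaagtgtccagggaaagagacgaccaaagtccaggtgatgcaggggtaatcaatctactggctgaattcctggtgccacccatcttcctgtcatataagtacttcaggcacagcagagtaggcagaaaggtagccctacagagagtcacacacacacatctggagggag
H3c6: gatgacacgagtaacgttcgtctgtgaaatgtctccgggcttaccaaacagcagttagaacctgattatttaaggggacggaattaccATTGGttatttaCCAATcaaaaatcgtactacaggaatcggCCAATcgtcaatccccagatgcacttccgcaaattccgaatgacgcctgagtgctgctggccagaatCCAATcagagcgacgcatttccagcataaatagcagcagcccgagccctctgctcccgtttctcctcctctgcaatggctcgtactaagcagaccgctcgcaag
2610001J05Rik: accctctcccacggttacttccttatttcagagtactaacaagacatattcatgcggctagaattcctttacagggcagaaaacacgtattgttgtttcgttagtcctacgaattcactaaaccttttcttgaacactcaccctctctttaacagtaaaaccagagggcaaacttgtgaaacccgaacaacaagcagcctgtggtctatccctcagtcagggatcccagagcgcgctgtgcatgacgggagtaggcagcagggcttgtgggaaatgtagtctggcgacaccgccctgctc
Zfp947: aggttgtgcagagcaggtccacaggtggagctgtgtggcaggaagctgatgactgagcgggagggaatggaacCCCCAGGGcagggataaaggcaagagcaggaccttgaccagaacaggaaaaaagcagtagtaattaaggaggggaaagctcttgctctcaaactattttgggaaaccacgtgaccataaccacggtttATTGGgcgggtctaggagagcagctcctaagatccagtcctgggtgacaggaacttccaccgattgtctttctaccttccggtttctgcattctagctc

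CCCNNGGG occurred in 4 of the 32 promoter windows at these regions (12.5%), beside 13.9% of the 31396 autosomal windows in the table. CCAAT occurred in 19 of the 32 (59.4%), beside 37.3% of all. Some windows overlap: those of *Slc44a1* start 3 bases apart, *Slfn8* also has a pair, and *Snrpn* and *Snhg14* share theirs. With overlapping windows of a strand joined, CCCNNGGG occurred in 3 of 29 (10.3%) beside 14.1% of all, and CCAAT in 18 of 29 (62.1%) beside 37.6%. The *H3c6* window held 4 CCAAT matches and the neighbouring *H2bc9* window 3, while the *H4c6* window held neither motif. A match is a string of letters and not a measured site.

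Most narrow regions were found once. A peak of 1 EBF2 library alone made up 246 of the 298 regions (82.6%), 31 regions were in 2 lists, 18 in 3 and 3 in all 4. Wide regions differed in this count, since 121 of 216 (56.0%) were in all 4 lists and 30 (13.9%) in 1. Cre replicate 1 alone gave 95 narrow regions, Vec replicate 1 alone 70, Cre replicate 2 alone 67 and Vec replicate 2 alone 14. In all, Vec replicate 1 had a peak in 112 of the regions, Vec replicate 2 in 26, Cre replicate 1 in 139 and Cre replicate 2 in 97. On the log2 scale the number of regions per list averaged 5.75 ± 1.49 for Vec and 6.86 ± 0.37 for Cre (SD, n = 2 lists each), and the groups overlapped, since Vec replicate 1 had more regions than Cre replicate 2. The log2 ratio of the mean counts, Cre over Vec, was 0.77. Without Vec replicate 2, the shallow library, it was 0.16, and without Vec replicate 1 it was 2.47. The part of depth in it was not tested.

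**Figure D1:**
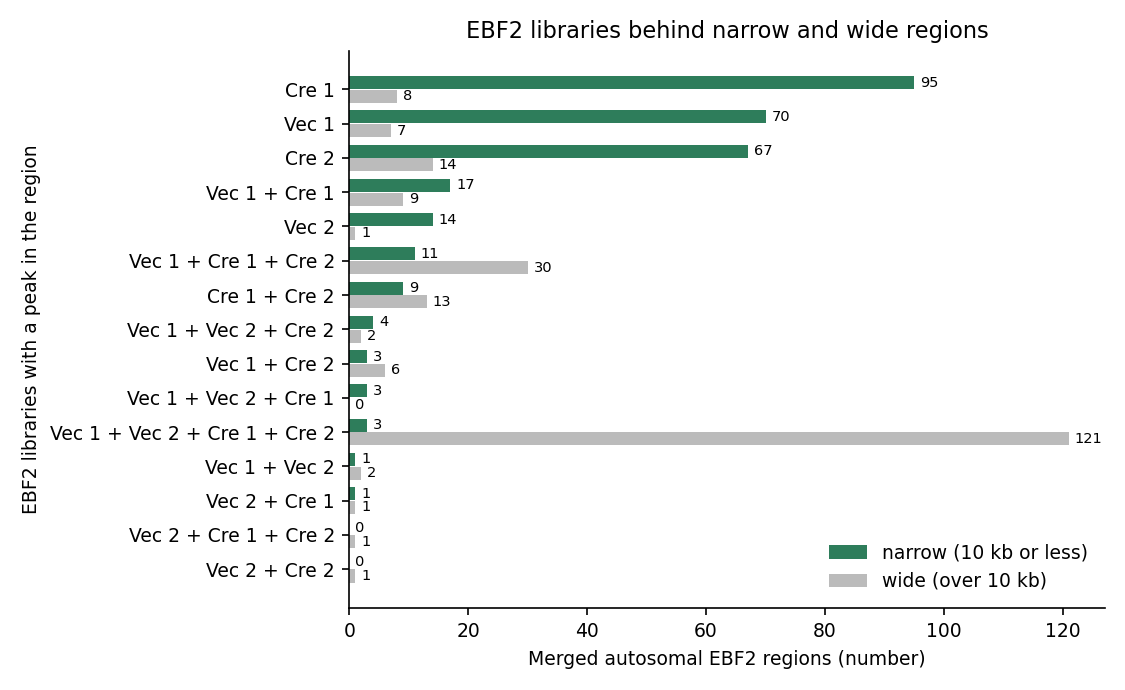
Number of merged autosomal EBF2 regions (x axis) by the set of EBF2 libraries that had a peak in them (y axis), with green bars for the 298 narrow regions and grey bars for the 216 wide ones. The 246 narrow regions of a single list stand against 3 in all 4 lists, and the wide regions against 121 in all 4.

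Narrow regions had lower folds than the highest folds of wide ones, and many lay near the lowest coverage listed. The fold over background, taken at a library's peak of the highest score in a region, had medians of 2.27 and 2.93 in Vec replicates 1 and 2. In Cre replicates 1 and 2 the medians were 2.27 and 2.15. For wide regions the highest fold among a library's peaks in each region was taken, with medians of 4.78, 5.84, 4.75 and 4.25. A wide region can hold several peaks of a library, which can raise this value, so the measures are not alike. The deposited fold and p-value together give the whole-number coverage under a summit, and this was recovered for all regions of a library except 1 region of Cre replicate 2. Median coverage was 20 and 7 fragments in the Vec libraries and 21 and 20.5 in the Cre libraries. The lowest coverage listed was 16, 6, 18 and 18 fragments, and 38.4%, 76.9%, 47.5% and 50% of the regions lay within 2 fragments of it. Regions shared with another list were deeper. Their median coverage was 27, 7.5, 32 and 29 fragments, beside 18, 6, 20 and 20 in regions of that library alone.

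**Figure D2:**
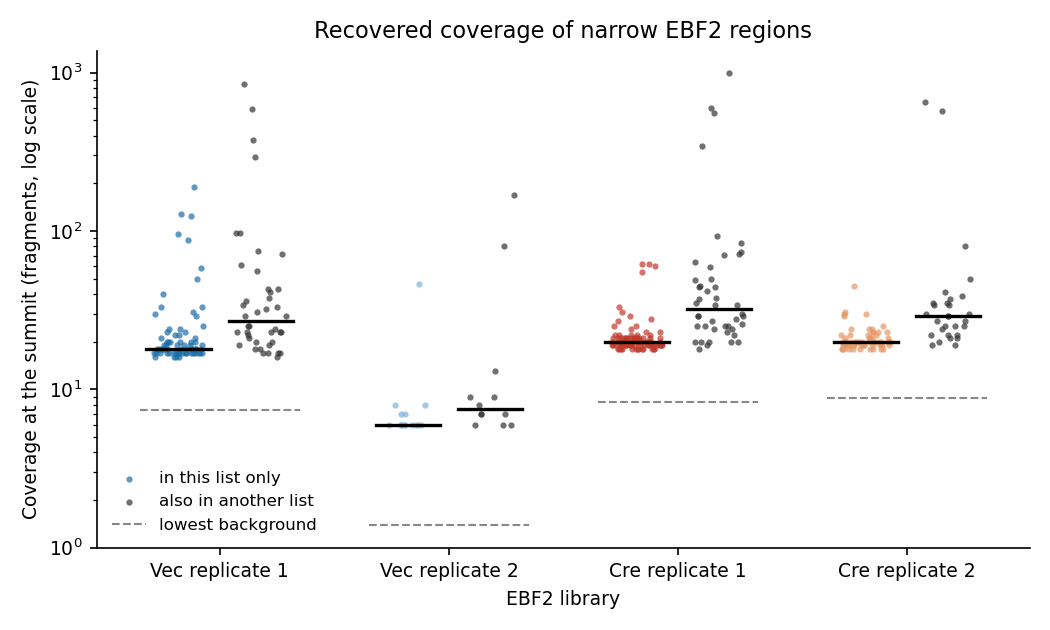
Coverage under the EBF2 summit in fragments (log scale) for each narrow region, by EBF2 library, with coloured points for regions in that list only, dark points for regions also in another list, black bars for medians and dashed lines for the library's lowest background. Regions of 1 list crowd just above the lowest coverage listed, at medians of 18, 6, 20 and 20 fragments.

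The EBF2 libraries allow a comparison of EBF2 peaks between control and *Cars2*-knockout BAC. Among the narrow regions, 1 was shared by the Vec lists and missing from the Cre lists, as were 0.490% of all 816 merged regions. The reverse, shared by the Cre lists and missing from the Vec lists, held for 9 narrow regions and 3.80% of all. These counts describe how the EBF2 lists overlap and have no test. Vec replicate 2, with a peak in 26 narrow regions, limits the number that the Vec lists can share. Without Vec replicate 1 the Cre lists shared 31 regions that Vec replicate 2 lacked, and without Vec replicate 2 they shared 9 that Vec replicate 1 lacked. The Vec lists shared 4 regions missing from Cre replicate 2 when Cre replicate 1 was left out, and 8 missing from Cre replicate 1 when Cre replicate 2 was left out. Pairs of lists from different lines shared regions too. Vec replicate 1 and Cre replicate 1 shared 17 regions that no other list had, Vec replicate 2 and Cre replicate 2 shared 0, Vec replicate 1 and Cre replicate 2 shared 3, and Vec replicate 2 and Cre replicate 1 shared 1. So the count of regions shared across the lines by the libraries numbered 1 was above the count shared by the 2 Cre libraries.

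The sole region of the Vec lists alone was at *Cyp3a41a* (chr5:145717493-145724251), a gene of the cytochrome P450 family, and covered the promoter printed above. The EBF2 folds in Vec replicates 1 and 2 were 2.39 and 2.93, from 19 and 6 fragments. It had no H3K27ac peak in any of the 4 lists and lay 1.41 kb from a wide EBF2 region.

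Of the 9 regions of the Cre lists alone, 2 were inside coding genes and 7 had no coding gene within 10 kb. The region in *Tshr* (chr12:91445691-91455040), the thyrotropin receptor, through which TSH can stimulate brown adipocytes, had folds of 2.70 and 2.66 in Cre replicates 1 and 2. The region in *Sfmbt2* (chr2:10486344-10494045), a polycomb-group gene whose intron holds a large microRNA cluster, had folds of 2.48 and 3.14 and overlapped microRNA genes of the Mir466, Mir467 and Mir669 families. Both had an H3K27ac peak in all 4 libraries, Vec and Cre alike. The nearest coding genes of the other 7 lay between 31.4 and 312 kb away, with *Defb33*, a beta-defensin, at the near end and *1700008P02Rik* and *Pla2g4a*, a cytosolic phospholipase A2, at the far end. *Lama2*, a laminin chain, was the nearest to chr10:27820869-27824339, where the folds were 2.49 and 1.82. H3K27ac was listed in all 4 libraries at 5 of the 9 regions, in 3 at the one near *Pla2g4a*, in both Cre libraries and neither Vec library at chr12:20194853-20197845, and in none at 2 regions of chromosome 6 near *Gm5885*. The region at chr12:20194853-20197845 was thus the sole one of the 9 where the EBF2 and H3K27ac lists split by cell line in the same way.

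The 3 regions in all 4 lists were at *Wdfy1*, at *St3gal4* and at the start of chromosome 9. In *Wdfy1* (chr1:79719673-79726874), which encodes an endosomal WD-repeat protein, the fold was 4.18 and 4.19 in Vec replicates 1 and 2 and 3.0 and 2.68 in Cre replicates 1 and 2. In *St3gal4* (chr9:35073737-35083292), a sialyltransferase gene, it was 3.58, 3.35, 3.17 and 2.87 in the same order. In both, each Vec value was above each Cre value, and all 4 H3K27ac libraries had a peak. The Vec replicate 2 values rest on 9 and 7 fragments, and the median fold of that library over its narrow regions (2.93) was above those of the other libraries. The region at chr9:3000419-3002988 had folds of 4.17, 4.03, 3.0 and 3.54, so there too each Vec value was above each Cre value. All 4 H3K27ac libraries had a peak there as well, but the region stood apart in depth. Its coverage was 851, 169 and 990 fragments in Vec replicates 1 and 2 and Cre replicate 1, where the median region had 20, 7 and 21. The background there was high as well, at 203, 41.2 and 329 fragments, where the lowest of these libraries was 7.38, 1.39 and 8.26. In Cre replicate 2 the coverage of this region was not recovered. Another 2 regions followed within 26.2 kb, and *Alkbh8*, a tRNA-modifying enzyme, was the nearest coding gene at 309 kb or more.

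The highest folds of any list were 5.87 at *Olfr247*, an olfactory receptor gene, in Vec replicate 2, and 5.28 at chr9:3024178-3026620, in the same stretch of chromosome 9, in Vec replicate 1. At *Olfr247* (chr10:129970546-129980022) the fold was 3.10 in Vec replicate 1 and 2.66 in Cre replicate 2, with 13 fragments behind the 5.87. The region 20.7 kb from *Cdh3* (chr8:106484150-106490166), the P-cadherin gene, had a fold of 4.19 in Vec replicate 2 from 9 fragments and 2.77 in Cre replicate 1 from 38. The top of the fold scale was thus held partly by a shallow library.

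H3K27ac lists were not used to choose the regions. An H3K27ac peak of any library overlapped 184 of the 298 regions (61.7%, exact 95% binomial interval 56.0 to 67.3%, counting error only), and all 4 libraries had one in 59 (19.8%). The interval treats regions as independent, which regions of 1 run are not. With each run counted once the share with any was 70.1%, outside that interval. The share with all 4 was 31.2% with each run of neighbouring regions counted once, 44.6% for EBF2 peaks at or above the median score, and 6.38% with H3K27ac peaks of 10 kb or less. Over all 816 merged EBF2 regions the shares with any and with all 4 were 73.7% and 43.0%. By library, H3K27ac Vec replicate 1 overlapped 46.0% of the narrow regions, Vec replicate 2 32.2%, Cre replicate 1 42.3% and Cre replicate 2 41.3%. For wide EBF2 regions the shares were 90.7%, 85.6%, 83.8% and 83.3%. Narrow regions had the lower share in 4 of 4 libraries, by 45.4 percentage points ± 5.51 (SD, n = 4). The classes were split by width, and a wider region meets an overlap of 1 bp more readily, so this is given as a description with no test. Narrow minus wide was -21.9 points with EBF2 peaks at or above the median score. The difference turned with the width of the H3K27ac peaks. With H3K27ac peaks of 10 kb or less alone, narrow regions had the higher share, by 6.39 points, and 83 of the 184 narrow regions with H3K27ac overlapped wide H3K27ac peaks only.

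Regions found again in a second EBF2 list had H3K27ac more often in each of the 4 H3K27ac libraries. Among the 52 regions in 2 or more EBF2 lists, H3K27ac was listed at 84.6% in Vec replicate 1, 71.2% in Vec replicate 2, 80.8% in Cre replicate 1 and 80.8% in Cre replicate 2. The 246 regions of 1 list had 37.8%, 24.0%, 34.1% and 32.9%. The gap was 47.1 percentage points ± 0.538 (SD, n = 4 libraries), higher in 4 of 4, with p = 0.13 in the exact permutation test over sign changes, the smallest it can give. This comparison was chosen after the data were seen. All 4 libraries were scored over the same regions, so the SD shows how alike the libraries were and not the error over regions. The gap was 44.5 points with H3K27ac peaks of 10 kb or less and 42.2 points when each run of neighbouring regions was counted once. Shared regions were wider, with a median of 3825 bp against 2050 bp, and deeper in EBF2 coverage as given above. Among regions up to 2 kb wide the gap was 67.6 points (5 and 119 regions). From over 2 kb up to 5 kb it was 41.2 points (25 and 107 regions) and above 5 kb 48.1 points (22 and 20 regions). The part of EBF2 depth was not tested. All 21 regions in 3 or 4 EBF2 lists had H3K27ac in at least 1 library and 16 of them in all 4.

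**Figure D3:**
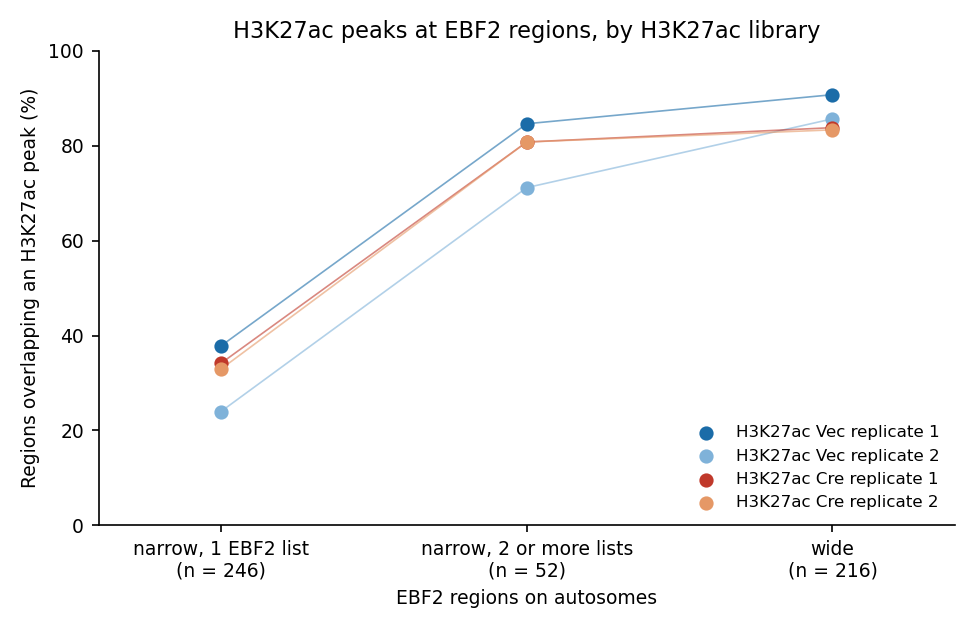
Percent of EBF2 regions that overlap an H3K27ac peak (y axis) for narrow regions of 1 EBF2 list, narrow regions of 2 or more lists and wide regions (x axis), with a point and line for each of the 4 H3K27ac libraries. In each library the share rises from 24.0 to 37.8% in the first class to 71.2 to 84.6% in the second.

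Between the lines, the share of narrow regions with H3K27ac averaged 39.1% ± 9.73 over the Vec libraries and 41.8% ± 0.712 over the Cre libraries (SD, n = 2 each). The difference of 2.68 points was inside the spread of the Vec libraries (exact permutation test, two-sided, p = 1; 2 libraries against 2 cannot go below 0.33). Without H3K27ac Vec replicate 2 it was -4.19 points. H3K27ac was also compared by the side of the EBF2 peak. At the 85 regions with EBF2 peaks in Vec lists alone, H3K27ac was listed at 52.9% and 41.2% in Vec replicates 1 and 2 and at 45.9% and 36.5% in Cre replicates 1 and 2. At the 171 regions of Cre lists alone it was 31.6% and 17.0% in the Vec libraries and 30.4% and 33.3% in the Cre libraries. Chosen as a comparison after the data were seen, the Cre-side share minus the Vec-side share was negative in 4 of 4 libraries, and it was 13.5 points higher in the Cre libraries (exact permutation test, p = 0.33, the smallest possible). This fell to 2.14 points with each run counted once, and to -14.4 points without EBF2 Vec replicate 1. At the 42 regions with EBF2 peaks from both lines, H3K27ac was listed at 83.3% in both lines on average.

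Many narrow regions lay in runs. With under 50 kb between neighbours, the 298 regions fell into 154 runs, of which 101 were single regions and 23 were pairs, and 30 runs of 3 or more held 151 regions (50.7%). In 19 of those 30 runs, with 99 regions, every region came from the same single EBF2 library.

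The run with the most regions had 14 over 235 kb of chromosome 12 (chr12:19700816-19935627, with *Gm38702*, *Gm40853* and *Gm9257* as the nearest coding genes), all of Cre replicate 1 alone, at folds from 2.05 to 2.37 and with no H3K27ac peak in any library. At *Bbs9* (chr9:22722762-22906131), which encodes a subunit of the BBSome of primary cilia, 11 regions over 183 kb, 9 of them overlapping the gene and 2 beyond its end, were all in EBF2 Cre replicate 1, and 1 of the 11 was also in Vec replicate 1. H3K27ac was listed at 10 of these 11 in Cre replicate 1, 10 in Cre replicate 2, 2 in Vec replicate 1 and 0 in Vec replicate 2. EBF2 Cre replicate 2 had none of the 11, so the H3K27ac lists split by cell line there while the EBF2 lists did not. On chromosome 18 (chr18:60231485-60319104), across *Gm4951*, *Gm4841* and *F830016B08Rik*, 11 regions were of EBF2 Vec replicate 1 alone. There H3K27ac was listed at 11 in Vec replicate 1, 6 in Vec replicate 2, 6 in Cre replicate 1 and 2 in Cre replicate 2. A run of 8 regions 76.3 to 115 kb from the nearest coding genes, *Gm3325* and *Gm9595* (chr13:61850552-61939593), was of Cre replicate 1 alone with no H3K27ac. On chromosome 2 (chr2:83094484-83153588), 85.5 to 143 kb from *Fsip2*, a gene of the sperm tail and the nearest coding gene, 6 regions were of Vec replicate 2 alone, each with 6 fragments and a fold of 2.93, and H3K27ac was listed at 4 of them in Cre replicate 1 and at 0 in the other libraries. Those 4 overlapped wide H3K27ac peaks only. A wide peak can cover several regions of a run, so the H3K27ac counts in these runs are of regions and not of separate peaks.

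**Figure D4:**
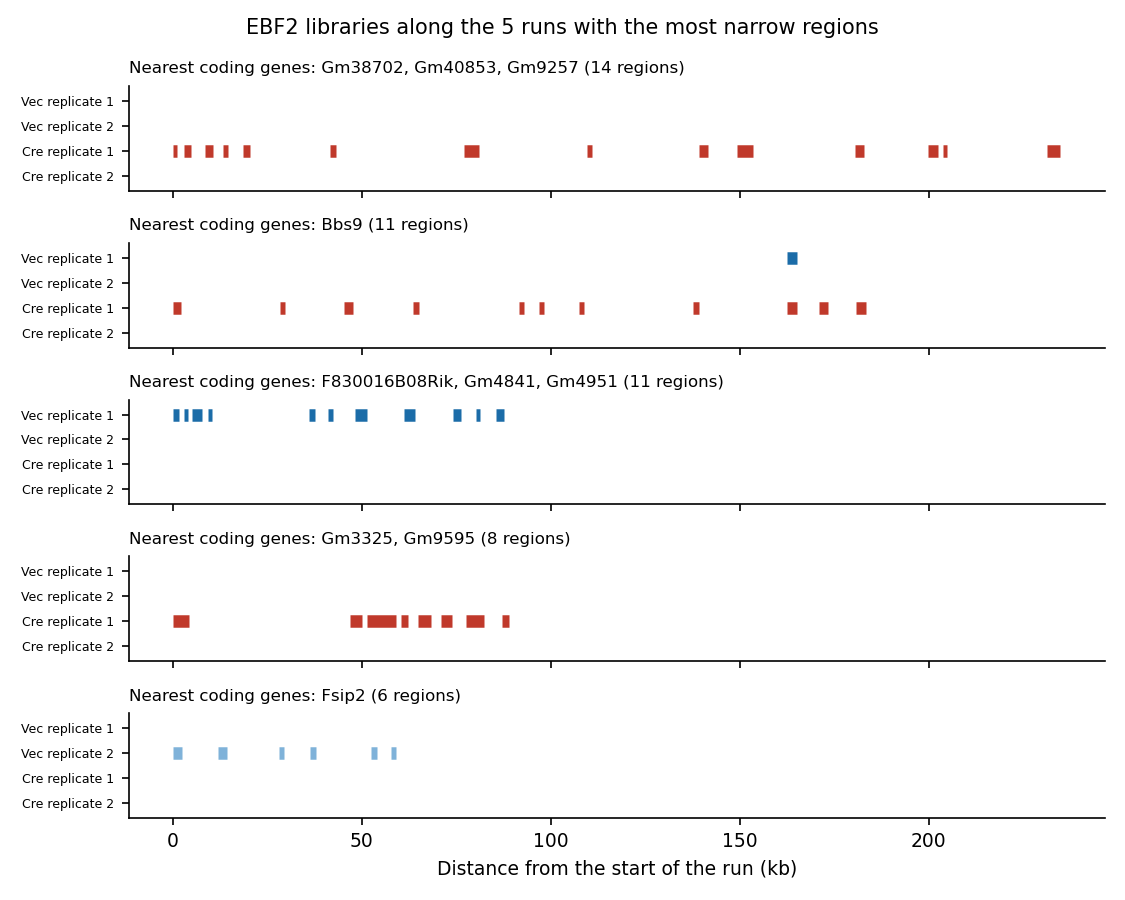
Narrow EBF2 regions along the 5 runs with the most regions, as distance in kb from the first base of each run (x axis), with a row for each EBF2 library a bar for each merged region in which that library has a peak, and the nearest coding genes above each panel. Each run is held by 1 library, with the exception of 1 region at *Bbs9* that Vec replicate 1 shares with Cre replicate 1. The run near *Fsip2* ties at 6 regions with a run near *Ube3a*, which is not drawn.

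A few further runs, named after their values were seen, sat at known gene clusters. In the histone cluster of chromosome 13 (chr13:23543170-23566398), 4 regions of Cre replicate 1 alone covered *H2bc9* and *H3c7*, *H4c6*, *H1f3* and *H3c6*. H3K27ac was listed at 4 of the 4 in both Cre libraries and at 3 in both Vec libraries. At *Zfp947* and *Zfp994* (chr17:22164732-22236578) 5 regions of Cre replicate 1, of which the one at *Zfp947* was also in Vec replicate 1, had H3K27ac in Vec replicates 1 and 2 and Cre replicate 2 at 5 of 5 and in Cre replicate 1 at 4. In the imprinted domain of chromosome 7, 6 regions near *Ube3a*, a ubiquitin ligase gene, were of Cre replicate 1 alone and 4 at *Snrpn* were of Cre replicate 2 alone, with no H3K27ac peak at any of the 10. The run near *Ube3a* had as many regions as the run near *Fsip2*.

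At gene ends, 63 of the 298 regions (21.1%) lay within 3 kb of the end of a protein-coding gene, either end counted, and 120 (40.3%) overlapped a coding gene. The share at a gene end was 31.8% with each run counted once and 32.2% with all annotated genes in place of coding genes. Wide EBF2 regions had 63.4% and 68.1%, and the 717 narrow autosomal H3K27ac regions 51.7% and 70.6%. By library, the share at a gene end was 29.5%, 23.1%, 18% and 13.4% in the EBF2 libraries (Vec replicates 1 and 2, Cre replicates 1 and 2) and 52.9%, 31.9%, 37.4% and 59.4% in the H3K27ac libraries. Every EBF2 value lay below every H3K27ac value, and EBF2 minus H3K27ac was -24.4 points (21.0 ± 6.90 against 45.4 ± 12.9, SD, n = 4; exact permutation test, two-sided, p = 0.0286, the smallest that 4 against 4 allows). Leaving out any 1 EBF2 library gave differences from -26.7 to -24.0 points, and leaving out H3K27ac Cre replicate 2 gave -17.7, each with an exact p of 0.0571. This comparison was chosen once the data had been seen, and it was not repeated with each run counted once. A region in several lists counted in each of them, and the libraries of an antibody came from 2 lines and may be technical repeats. The p-value therefore describes these libraries only. The 2 antibodies differ in peak shape and list layout as well as in target, which cannot be told apart here.

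A narrow H3K27ac peak in at least 3 libraries was listed at 7 of the 63 regions at a gene end (11.1%) and at 37 of all 298 narrow regions (12.4%), so the shares were close. The region at *LOC100504180* and the double-homeobox gene *Duxf3* (chr10:58223172-58228614) had EBF2 folds of 2.30, 1.75 and 1.76 in Vec replicate 1, Cre replicate 1 and Cre replicate 2. At the histone gene *H4c14* (chr3:96262507-96263954) the folds were 2.09 in Vec replicate 1 and 2.2 in Cre replicate 1, and at *Hspa1a* (chr17:34964215-34970936), the inducible HSP70 gene, 1.48 and 1.71 in the same libraries. The other 4 were of 1 EBF2 list, namely *Eppk1* (epiplakin), *2610001J05Rik*, *Ugt3a1* (a UDP-glycosyltransferase) and *Casp8* (caspase-8). Coverage behind the first 3 was between 71 and 97 fragments, above the medians of their libraries. The background there was raised too, between 31.7 and 65.3 fragments. Its medians over narrow regions were 7.38, 8.26 and 8.76 in Vec replicate 1, Cre replicate 1 and Cre replicate 2. Apart from 2.30 in Vec replicate 1, the folds were below the medians of their libraries.

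Few of the listed genes had a narrow EBF2 region within 10 kb, as few of all coding genes had. Of 32 autosomal genes of the brown adipocyte and thermogenesis list *Tshr* alone did (3.13%), and of 38 of the actin cytoskeleton list *Rdx* alone did (2.63%). *Rdx* encodes radixin, which ties actin to the membrane, and its region (chr9:52092027-52093050), 3.29 kb away, was of Vec replicate 1 alone. That region had a fold of 2.07, from 124 fragments over a background of 59.3, and no H3K27ac. None of the 30 genes of the adipocyte and lipid list, the 12 of the preadipocyte and fibroblast list or the 21 of the cysteine and sulfur list had one, nor had the 7 muscle, 4 macrophage or 4 endothelium genes. In all 2 of 148 autosomal genes on the lists (1.35%) had a region, with 4 more listed genes left out of this count because they are not on autosomes, beside 140 of 20661 autosomal coding genes (0.678%). Genes named Gm and a number, the label of predicted genes, were the nearest to 79 of the 298 regions (26.5%), and made up 27 of the 166 distinct nearest genes (16.3%) and 4.67% of autosomal coding genes. Among nearest genes with a family symbol, 51 of 110 (46.4%) had a member of the same family within 200 kb, beside 26.9% of all.

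A part of the narrow regions lay close to a wide one. The nearest wide EBF2 region was within 10 kb for 79 regions (26.5%), within 100 kb for 124 (41.6%) and within 1 Mb for 170 (57.0%), with a median distance of 430 kb. Narrow H3K27ac regions lay within 100 kb of a wide H3K27ac region in 28.5% of cases. By library these shares averaged 33.6% ± 10.5 for EBF2 and 29.7% ± 9.86 for H3K27ac (SD, n = 4). The EBF2 peaks that set this distance also chose the regions, so the shares are given as a description with no test. Regions of 1 list were the nearer ones, with 111 of 246 (45.1%) within 100 kb, against 13 of 52 (25%) of those in 2 or more lists. By EBF2 library the share within 100 kb was 32.1% in Vec replicate 1, 19.2% in Vec replicate 2, 41.7% in Cre replicate 1 and 41.2% in Cre replicate 2. The order of the libraries changed with the window. Within 1 Mb the shares were 45.5% and 50% in the Vec libraries and 62.6% and 48.5% in the Cre libraries, and since the EBF2 peaks chose both kinds of region the lines were not tested.

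**Figure D5:**
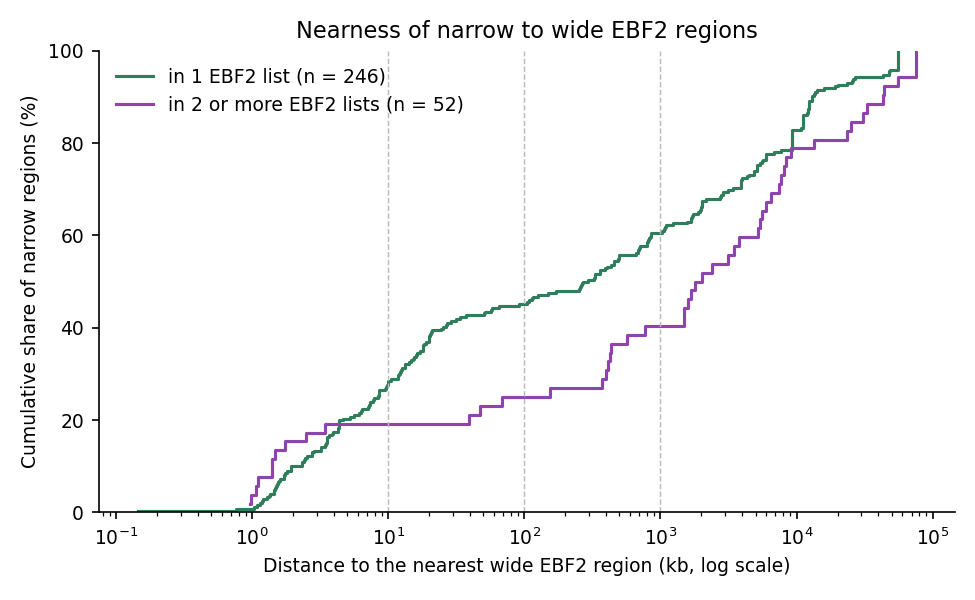
Cumulative percent of narrow regions (y axis) by distance to the nearest wide EBF2 region in kb (x axis, log scale), for the 246 regions of 1 EBF2 list and the 52 of 2 or more, with dashed lines at 10 kb, 100 kb and 1 Mb. At 100 kb the curves stand at 45.1% and 25%.

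At the width limit, the widest narrow regions were 9836 bp at *Extl3*, a heparan sulfate glycosyltransferase gene, 9673 bp near the vomeronasal receptor gene *Vmn2r87* and 9620 bp at *Zfp994*, each of 1 EBF2 list. Just above it were regions of 10133 bp near *Adam1b* in 1 list, 10193 bp near *Trim52* in all 4 lists and 10376 bp near *5530400C23Rik* in both Cre lists.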

How the data were processed

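EBF2 and H3K27ac were profiled by Cut & Tag in differentiated Vec and Cre BAC, 2 libraries for each antibody and line. The submitters' processing notes name bcl2fastq 2.17, Trimmomatic 0.33, HISAT2 2.2.1, MACS2 2.2.7 and the build mm10. The authors called peaks on each library by itself and deposited 1 list per library, narrow peaks for EBF2 and broad peaks for H3K27ac. The deposited score is 10 times the −log10 q-value as a whole number, and the authors also gave a fold (a ratio to the caller's background), −log10 of the p-value and q-value, and for EBF2 the summit. In the broad lists these values are means over the peak. Duplicate handling, control library and caller settings are not given in the sources used here, and with no read counts the depth is known only through the coverage recovered here.

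From the lists were computed merged regions (overlap of at least 1 bp, limit 10 kb), list membership, distances, and overlaps of at least 1 bp with H3K27ac peaks, all with 1 code for every library. Coverage k and background b came from fold = (k + 1) / (b + 1) and the Poisson p-value, where they matched within 0.001 in −log10 p. Genes and promoter windows came from RefSeq tables of GRCm38.p6 (20661 coding genes on autosomes). A gene end is either end of a gene. Shares were compared between libraries by exact permutation tests, two-sided, since EBF2 lists chose the regions. Named were regions in both lists of 1 line only, regions in all 4 lists, gene ends with narrow H3K27ac peaks in at least 3 lists, the 5 highest folds, the 3 regions on either side of the limit, members near listed genes, and the 5 runs with the most regions. Members and lists were chosen with earlier results of these data known. Alternatives were the width limit, merging within 500 bp, a score minimum, other windows, an overlap of 50% of the region, H3K27ac peaks of 10 kb or less or of a higher score, all annotated genes, a replicate block, and leaving out each library. Counting runs once and 3 comparisons (shared against single regions, EBF2 side, EBF2 against H3K27ac gene ends) were chosen once the data had been seen. The code was tested on simulated lists. Computation used Python 3.11.15 with scipy 1.17.1, pandas 2.3.3 and numpy 2.4.6, and plots matplotlib 3.10.9.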

Additional observations from a re-analysis of the deposited data

How the results depend on the processing

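The EBF2 and H3K27ac lists carry no read counts, the libraries of a group may be technical repeats, and regions of 1 run are not independent, so that intervals and exact p-values describe these libraries only. Over 16 results and 199 alternatives, 135 values were classed as the same as the main value. For differences and ratios this class did not always mean the same size. It held the log2 ratio of 0.16 without EBF2 Vec replicate 2, beside 0.77 in the main setting. It also held the EBF2-side difference of 2.14 points with each run counted once, beside 13.5.

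A limit of 5 kb gave 1 region in all 4 lists and 0 in the Vec lists alone, and a limit of 20 kb gave 7 and 2, with 14 in the Cre lists alone. With EBF2 peaks at or above the median score there were 101 regions, 70 of them in 1 list, 0 in the Vec lists alone and 5 in the Cre lists alone; 28.7% were at a gene end, 29.7% within 100 kb of a wide region, 84.2% with any H3K27ac peak and 44.6% with all 4, and the Cre minus Vec difference was 0. Counting runs once gave 154, with 105 in 1 list and 2 in the Vec lists alone, 31.8% at a gene end, 48.7% inside a coding gene, 70.1% and 31.2% with any and all H3K27ac lists, and -3.25 points for Cre minus Vec. A gene end within 1 kb held for 15.4%, and with all annotated genes 32.2% were at an end and 55.4% inside. Windows of 10 kb and 1 Mb to a wide region gave 26.5% and 57.0%, and wide H3K27ac regions within 100 kb 59.1%.

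With H3K27ac peaks of 10 kb or less, 33.9% of regions had one in any library and 6.38% in all, Cre minus Vec was -0.839 points, narrow minus wide 6.39 points and the EBF2-side difference -0.877 points. With H3K27ac peaks at or above the median score these shares were 32.9% and 9.73%, and Cre minus Vec was -3.19 points.

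With a replicate block the log2 ratio averaged 1.11 over the pairs (0.31 and 1.90), a mean of logs where 0.77 is the log of a ratio of means, and it has no test. The paired Cre minus Vec difference was 2.68 points (exact permutation, p = 1), the same call as without pairing. Nothing says that equal numbers pair the cultures.

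Leaving out 1 library at a time gave 264 to 317 regions, 3 to 14 in all remaining lists, 236 to 270 in 1 list, 4 to 73 in the Vec lists alone and 9 to 142 in the Cre lists alone, where a line with 1 list left needs only that list. The log2 ratio ran from 0.16 to 2.47, highest without EBF2 Vec replicate 1. The share at a gene end ran from 16.7 to 21.6%, inside a gene from 32.7 to 40.2%, near a wide region from 36.9 to 46.6%, with any H3K27ac from 55.0 to 71.6% and with all from 20.0 to 27.3%. Cre minus Vec ran from -4.19 to 9.56 points, narrow minus wide from -46.8 to -38.2, shared minus single regions from 38.6 to 48.9, the EBF2-side difference from -14.4 to 25.3, and EBF2 minus H3K27ac gene ends from -27.7 to -17.7 points (exact permutation p from 0.0286 to 0.0571). The cause of these shifts was not tested.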
